A study of Danio rerio with 8 samples.

Results

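The genes described here are insulin and the genes whose products fold and process prohormones. They were taken by name from a table of read counts per gene: 8 rows of 31953 gene rows carried 1 of 7 of the 8 symbols sought (ins, pcsk1, pcsk2, cpe, pam, pcsk1nl and scg5, the last on 2 rows). The name ero1b stood on no row. The row named ero1lb is reported beside the others because the gene names table pairs its identifier, ENSDARG00000103915, with ERO1B. All 9 rows passed the filter on low counts.

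The RNA came from pancreatic cells of zebrafish, taken 30 days post fertilization (dpf). Fish of every group carried the transgenes Tg(ins:BB1.0L), a fluorescent reporter under the insulin promoter, and TgBAC(sst1.1:memEGFP), a membrane EGFP driven by the gene of a somatostatin, sst1.1, and growth is labelled normal. Cells were sorted by their reporters into 3 groups: sst1.1+ (3 libraries), sst1.1+ins+ (3 libraries, positive for both) and ins+ (2 libraries). A reporter of ins thus defined the groups, so the ins values describe the sort and support nothing further. The labels do not say whether libraries came from separate fish, pools or sorts. The p-values set group differences against the spread between libraries of a group, and that spread may be technical.

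Insulin is made as a precursor. After its signal peptide is removed, disulfide bonds form in the endoplasmic reticulum (ER) with the help of an oxidase, which ero1b encodes, and of protein disulfide isomerases. In the secretory granules the convertases encoded by pcsk1 and pcsk2 cut prohormones at pairs of basic residues. The carboxypeptidase encoded by cpe then trims the exposed basic residues, and the enzyme encoded by pam amidates the ends of those peptides that carry a glycine there. In mammals the pcsk1nl product (proSAAS) inhibits the pcsk1 convertase, and the scg5 product is a chaperone that the pcsk2 convertase needs in order to mature. Mammalian beta-cells use both convertases for proinsulin, and prosomatostatin in delta-cells is cut by the same family of enzymes.

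The libraries held 16948429 to 30374029 gene counts, with the smallest totals in ins+ (16948429 and 19861081), which also had the largest share of spike-in RNA (0.0416 and 0.0501% against 0.0145 to 0.0348% in the other 6). Levels are in CPM, the counts of a gene divided by its library total and put on a common scale, with totals scaled by the trimmed mean of M-values (TMM). The level of sst1.1 followed its reporter and stood at 250996 to 298610 CPM in sst1.1+, 156845 to 210186 in sst1.1+ins+ and 43277 to 55025 in ins+. Other delta-cell markers did not all follow. In the same order of groups sst1.2 stood at 19194 to 39786, 17844 to 39738 and 23420 to 23913 CPM. The ranges of sst2 were 7512 to 24352, 9197 to 28433 and 20748 to 20792 CPM. Those of HHEX were 49.2 to 80.4, 31.2 to 34.6 and 12.8 to 16.3 CPM. Markers of other cells were not equal between groups. The 3 alpha-cell marker genes in the table summed to 33702 to 66000 CPM in sst1.1+, 24464 to 34106 in sst1.1+ins+ and 11359 to 18665 in ins+. The 10 ductal and epithelial markers summed to 736 to 1062, 593 to 827 and 297 to 365 CPM, with cftr at 0 in sst1.1+ and ins+ and cldnh at 0 in ins+. Most of the sum lay in clu, krt8, krt18, anxa4 and epcam (means of 280, 237, 139, 132 and 102 CPM in sst1.1+), against 0.90 for sox9b. Of these 10 markers edgeR called 5 lower in ins+ than in sst1.1+ at adjusted p under 0.05: krt8, krt18, clu, cldnh and epcam. Of all genes tested 2.42% were called lower. The 7 immune markers summed to 200 to 315, 55.7 to 127 and 78.7 to 98.3 CPM, with lcp1 at 0 in every group, coro1a at 0 in sst1.1+ and mpeg1.1 at 0 in both other groups. Nearly all of this sum was cd74a and cd74b, which averaged 109 and 148 CPM in sst1.1+. The markers ptprc, mpx, coro1a and mpeg1.1 averaged at most 1.774 CPM in any group. Of 3 immune markers tested edgeR called 1 lower in ins+ than in sst1.1+, cd74a. The 13 acinar markers in the table summed to 33.9 to 142, 32.1 to 87.8 and 19.997 to 69.5 CPM, ranges that overlap, and cpa4 and ptf1a were at 0 in ins+. Of the 7 mesenchymal markers the sums were 13.2 to 100 CPM in sst1.1+, 10.4 to 22.7 in sst1.1+ins+ and 15.3 to 23.8 in ins+. Erythrocyte markers, of which only 3 of the 7 listed were in the table, and endothelial markers summed to at most 2.64 CPM in any library. The part of these cells in the differences below was not tested. In bulk samples fewer cells of a type and less RNA per cell cannot be told apart.

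**Figure D1:**
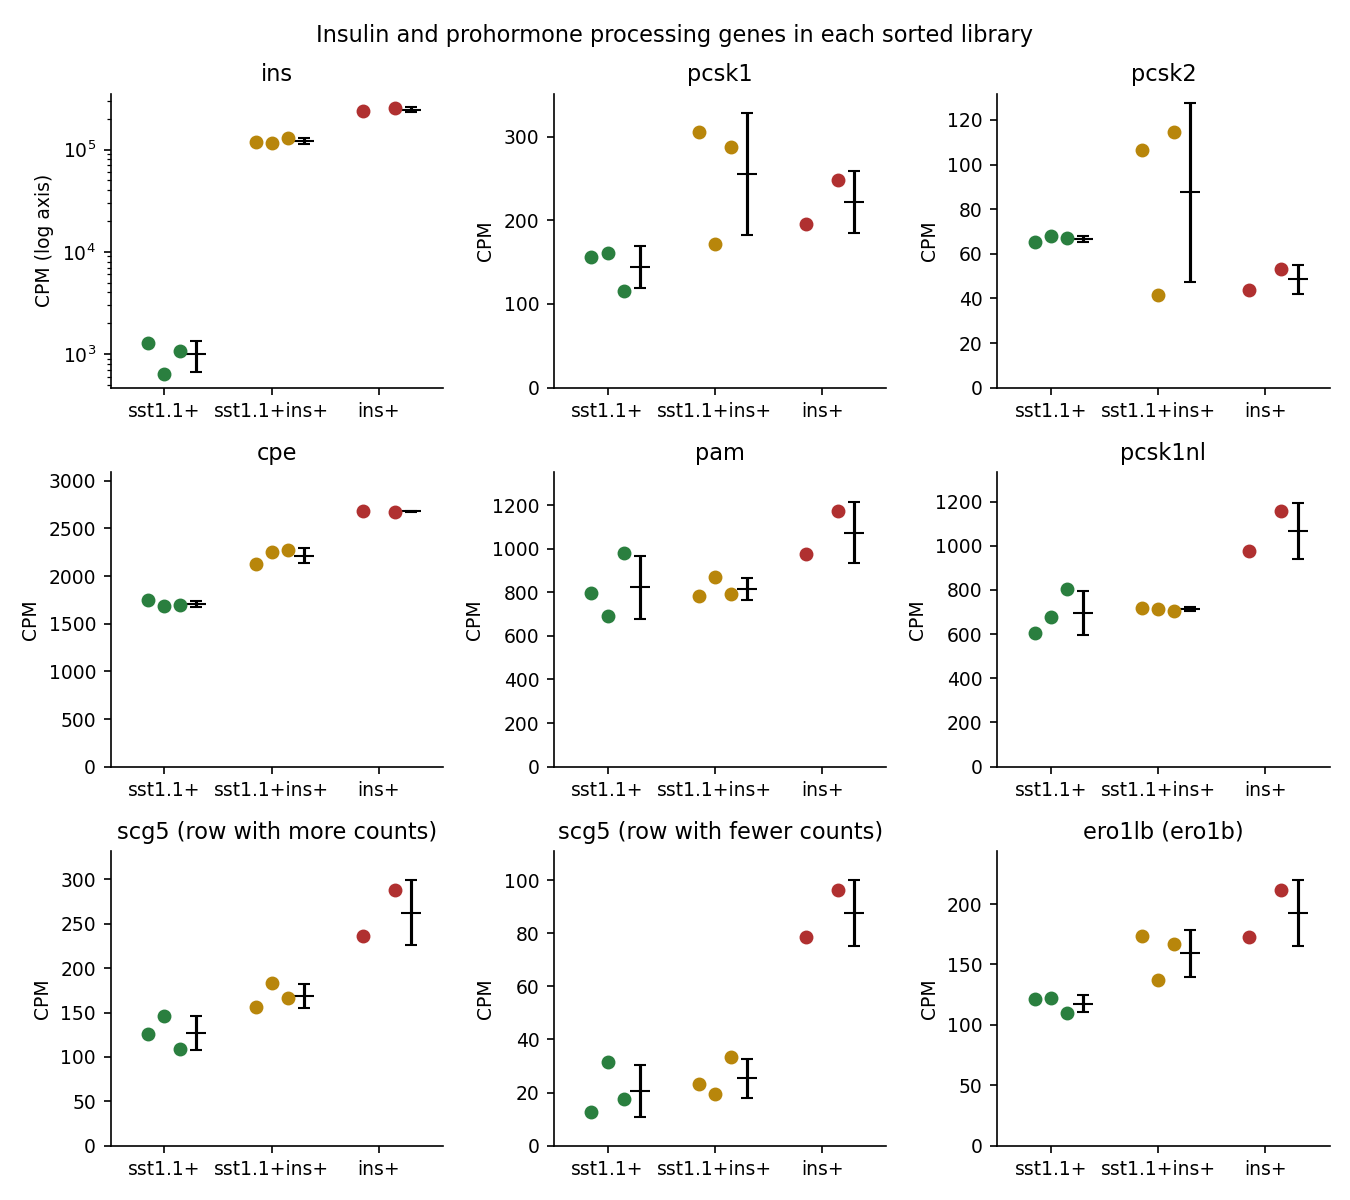
Level of each gene in CPM (vertical axis, logarithmic for ins and from 0 for the others) in every library of the 3 sorted groups. Points are libraries, and the bar beside them is the mean with its SD (n = 3, 3 and 2). The cpe libraries form 3 separate steps, from 1681 to 1746 CPM in sst1.1+ to 2676 and 2683 in ins+, and sst1.1+ins+ replicate 2 lies below its group in pcsk1 and pcsk2.

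The first comparison, ins+ against sst1.1+, asked how insulin cells differ from sst1.1 cells. Of the 9 rows, 6 were higher in ins+ at adjusted p under 0.05 and 0 were lower: ins, cpe, pcsk1nl, both scg5 rows and ero1lb. Counts over the 9 rows, here and in the later comparisons, include ins, whose reporter defined the groups, and scg5 on both its rows. The same holds for the median below, so these figures describe the rows and test nothing about them as a set. Over the 16418 genes tested, 4.03% were called in this comparison, 1.61% higher and 2.42% lower. The convertase genes pcsk1 and pcsk2 and the amidating enzyme gene pam were not called. Over the 9 rows the log2 fold changes had a median of 0.65, against -0.07 over all genes tested. In 8 of the 9 rows the groups did not overlap, which was so for 33.3% of all genes tested. Without ins+ replicate 2, ins was the 1 row of 9 still called, and without ins+ replicate 1 there were 4, ins, cpe and both scg5 rows.

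Insulin (ins, ENSDARG00000035350) stood at 1277, 634 and 1081 CPM in sst1.1+ replicates 1 to 3. It stood at 118209, 115530 and 130711 CPM in sst1.1+ins+ and at 235649 and 257044 CPM in ins+. The 3 groups did not overlap at any point, and the lowest sst1.1+ library still held 15599 ins reads. The level was 247-fold higher in ins+ than in sst1.1+ (log2 fold change 7.95 ± 0.26 SE, adjusted p = 4.23e-08).

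The convertase gene pcsk1 (ENSDARG00000002600) stood at 156, 161 and 116 CPM in sst1.1+, at 306, 172 and 288 in sst1.1+ins+, and at 196 and 248 in ins+. Both ins+ libraries lay above the 3 sst1.1+ libraries. The log2 difference of 0.62 ± 0.25 SE (95% interval 0.08 to 1.16) did not pass after adjustment (adjusted p = 0.216), and the interval holds the size seen for cpe. The convertase gene pcsk2 (ENSDARG00000019451) stood at 65.4, 67.9 and 66.9 CPM in sst1.1+, at 106.5, 41.4 and 115 in sst1.1+ins+, and at 43.8 and 53.2 in ins+. It was the 1 row of 9 with a lower mean in ins+ than in sst1.1+, and these groups did not overlap, but the log2 difference of -0.46 ± 0.35 SE (95% interval -1.23 to 0.31) was not called (adjusted p = 0.538). The spread behind this SE includes the sst1.1+ins+ libraries, whose replicate 2 held 975 pcsk2 reads against 2751 and 2781 in the others. Of 17 alternatives 0 called pcsk2, among them the fit of only the 2 groups compared and the fit without that library.

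The carboxypeptidase gene cpe (ENSDARG00000055874) had the smallest SE of the rows described for ins+ against sst1.1+. It stood at 1746, 1681 and 1696 CPM in sst1.1+, at 2126, 2248 and 2269 in sst1.1+ins+, and at 2683 and 2676 in ins+. The ranges were ordered with a gap between each pair of groups. In ins+ it was 1.57-fold higher than in sst1.1+ (log2 0.65 ± 0.11 SE, adjusted p = 0.00587), and without ins+ replicate 2 the log2 difference was again 0.65, with adjusted p = 0.0553. The amidating enzyme gene pam (ENSDARG00000100170) stood at 797, 693 and 979 CPM in sst1.1+, at 784, 871 and 790 in sst1.1+ins+, and at 974 and 1174 in ins+. Its sst1.1+ and ins+ ranges overlapped, and the log2 difference of 0.38 ± 0.16 SE (95% interval 0.03 to 0.74) was not called (adjusted p = 0.246).

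Of the genes for partners of the convertases, pcsk1nl (ENSDARG00000076170) stood at 604, 680 and 804 CPM in sst1.1+, at 720, 715 and 703 in sst1.1+ins+, and at 976 and 1158 in ins+. Both ins+ libraries lay above the other 6. The gene was 1.53-fold higher in ins+ than in sst1.1+ (log2 0.62 ± 0.15 SE, adjusted p = 0.0417), a call close to the threshold. It was lost in 8 of 17 alternatives: with only the libraries of both groups (adjusted p = 0.097) and without any 1 library except sst1.1+ replicate 3 (adjusted p = 0.0522 to 0.264).

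The scg5 row with more reads (ENSDARG00000032126) stood at 126, 146 and 109 CPM in sst1.1+, at 156, 183 and 167 in sst1.1+ins+, and at 237 and 288 in ins+. The ranges of the 3 groups followed each other without overlap, and the gene was 2.07-fold higher in ins+ than in sst1.1+ (log2 1.05 ± 0.18 SE, adjusted p = 0.00589). The scg5 row with fewer reads (ENSDARG00000077045) stood at 12.5, 31.7 and 17.5 CPM in sst1.1+, at 23.1, 19.4 and 33.5 in sst1.1+ins+, and at 78.7 and 96.3 in ins+. Here the sst1.1+ and sst1.1+ins+ ranges overlapped and ins+ stood above both. The difference was 4.25-fold (log2 2.09 ± 0.37 SE, adjusted p = 0.00837), the largest among the 9 rows after ins. Without ins+ replicate 2 the log2 differences of these rows were 0.90 and 1.94, with adjusted p = 0.0697 and 0.0670. Reads shared by such like-named rows cannot be apportioned, and their sum gave a log2 difference of 1.25 (adjusted p = 0.00239).

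The ER oxidase gene ero1lb stood at 121, 122 and 110 CPM in sst1.1+, at 174, 137 and 167 in sst1.1+ins+, and at 173 and 212 in ins+. Neither ins+ nor sst1.1+ins+ overlapped sst1.1+, which was so for 33.3% and 14.7% of all genes tested. Between ins+ and sst1.1+ the level of ero1lb differed 1.63-fold (log2 0.71 ± 0.17 SE, adjusted p = 0.0437). This call was lost in 10 of 17 alternatives: without any 1 library except sst1.1+ins+ replicate 2 (adjusted p = 0.0594 to 0.271), with library totals alone (0.0560), with the replicate block (0.0815) and with only the 2 groups compared (0.0906).

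**Figure D2:**
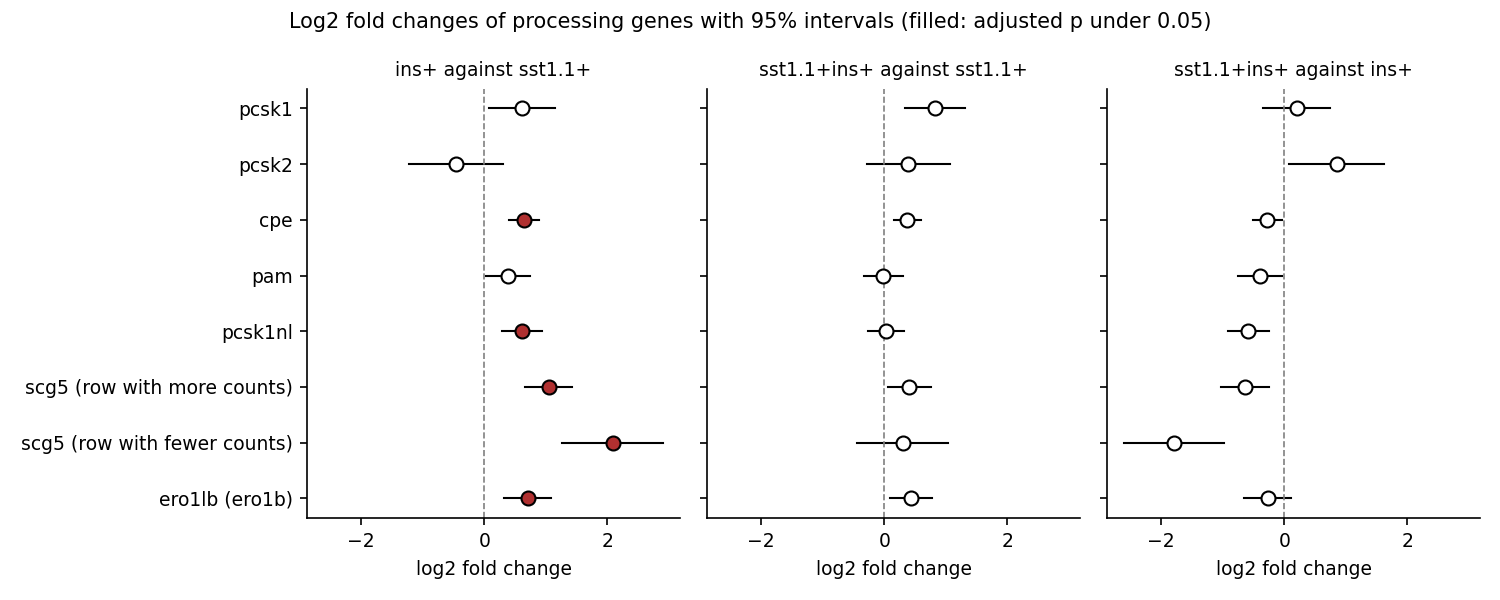
Log2 fold change (horizontal axis) of the processing genes in the 3 comparisons, with 95% intervals; ins is left out because of its size. Filled points passed at adjusted p under 0.05: 5 rows besides ins for ins+ against sst1.1+, and 0 in either comparison of sst1.1+ins+, where the largest difference is -1.79 for the scg5 row with fewer reads.

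The second comparison, sst1.1+ins+ against sst1.1+, asked what distinguishes cells with both reporters from cells with the sst1.1 reporter alone. It shares its control libraries with the first. Of the 9 rows 1 was called, ins, which was 122-fold higher (log2 6.93 ± 0.25 SE, adjusted p = 9.99e-08), and 0.207% of genes tested were called (0.177% higher, 0.0305% lower). Of the other 8 rows, pcsk1 had the largest difference, 0.82 ± 0.22 SE on the log2 scale (95% interval 0.33 to 1.31, adjusted p = 0.267). All 3 sst1.1+ins+ libraries lay above the highest sst1.1+ library in pcsk1, by little in replicate 2. The log2 differences of cpe (0.37 ± 0.10, adjusted p = 0.242), ero1lb (0.44 ± 0.16, adjusted p = 0.522) and the scg5 row with more reads (0.41 ± 0.16, adjusted p = 0.569) came without overlap between groups. With ins and pcsk1, 5 of 9 rows did not overlap, against 14.7% of all genes tested.

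For pam the log2 difference was -0.01 (95% interval -0.33 to 0.31, adjusted p = 1), and for pcsk1nl it was 0.03 (-0.26 to 0.33, adjusted p = 1). Differences of more than about 1.3-fold lie outside both intervals. For pcsk2 the difference was 0.39 (-0.29 to 1.07, adjusted p = 0.937) and for the scg5 row with fewer reads 0.30 (-0.44 to 1.04, adjusted p = 1), and both intervals hold a 2-fold increase. Other tools called more: DESeq2 called pcsk1 (adjusted p = 0.0227) and cpe (0.00722), limma-voom called cpe (0.00559), and edgeR without a low-count filter called pcsk1 (0.00409).

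The third comparison, sst1.1+ins+ against ins+, set the double-positive cells against cells with the insulin reporter alone. Of the 9 rows 1 was called, ins, 2.03-fold lower in sst1.1+ins+ (log2 -1.02 ± 0.21 SE, adjusted p = 0.0495). Of all genes tested 0.92% were called, 0.755% higher and 0.164% lower. The ins call was lost in 7 of 17 alternatives: without any 1 library except sst1.1+ replicates 1 and 2 (adjusted p = 0.0544 to 0.236), and with scaling that left out hormone and mitochondrial genes (0.0605). The groups themselves did not overlap in ins in any library.

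The scg5 row with fewer reads fell just short of the threshold: it averaged 25.3 ± 7.32 CPM (SD, n = 3) against 87.5 ± 12.5 (n = 2), a log2 difference of -1.79 ± 0.37 SE with adjusted p = 0.0512, and it was called in 8 of 17 alternatives. Among these were RLE scaling (0.0492), DESeq2 (0.000714), limma-voom (0.0107), the fit of only the 2 groups (0.0215) and the fits without sst1.1+ replicate 1 (0.0347) and replicate 2 (0.0288). Log2 differences of pcsk1nl (-0.58 ± 0.15, adjusted p = 0.117), the other scg5 row (-0.64 ± 0.18, adjusted p = 0.148), pam (-0.40 ± 0.16, adjusted p = 0.351) and cpe (-0.28 ± 0.11, adjusted p = 0.338) were all negative without overlap between groups. With ins, 6 of the 9 rows did not overlap, against 30.3% of all genes tested. Of 17 alternatives 3 called pcsk1nl, 1 called cpe and 0 called pam. The scg5 row with more reads was called in 1 of 18, the sum of both rows included.

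The 2 convertase genes had the 2 positive differences of this comparison. For pcsk1 it was 0.20 (95% interval -0.35 to 0.75, adjusted p = 0.833), and the ranges overlapped. For pcsk2 it was 0.85 ± 0.36 SE (95% interval 0.07 to 1.63, adjusted p = 0.364), and the groups overlapped because of sst1.1+ins+ replicate 2. Of 17 alternatives 1 called pcsk2, the fit without that library, where the difference was 1.19 (adjusted p = 0.0385). That fit leaves out the sst1.1+ins+ library with the lowest pcsk2 level.

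The place of the double-positive cells between the single-positive groups is given as a description, without an error or a test between genes. On a scale of mean log2 CPM where sst1.1+ is 0 and ins+ is 1, they lay at 0.61 for ero1lb, 0.58 for cpe, 0.40 for the scg5 row with more reads, 0.17 for that with fewer reads and 0.07 for pcsk1nl. For ins, whose reporter defined the groups, the place was 0.87. These are the 6 rows called between the single-positive groups. Being called higher in ins+ set the order of the single-positive groups in these 6. How many of all called genes have sst1.1+ins+ in the middle was not counted. For pcsk1nl the interval of the log2 difference between sst1.1+ins+ and sst1.1+ holds 0 (-0.26 to 0.33). That of the scg5 row with fewer reads also holds 0 (-0.44 to 1.04). For ero1lb the interval between sst1.1+ins+ and ins+ holds 0 (-0.65 to 0.11). As a description, the order of means was sst1.1+, sst1.1+ins+, ins+ in each of these 6. It differed in the other 3: pcsk1 and pcsk2 were highest in sst1.1+ins+, at 255 ± 72.6 and 87.5 ± 40.1 CPM (SD, n = 3), and pam was lowest there, at 815 ± 48.5 CPM. In none of these 3 did sst1.1+ins+ differ from its neighbour in the order beyond adjusted p of 0.05, or from the other group. The same was true of cpe, pcsk1nl, ero1lb and both scg5 rows, where edgeR adjusted p was 0.0512 or more. Of the rows described, only ins was called between sst1.1+ins+ and either single-positive group.

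Ratios within a library do not depend on how totals are scaled. The reads of pcsk1 outnumbered those of pcsk2 by 2.39, 2.37 and 1.73 to 1 in sst1.1+, by 2.87, 4.15 and 2.51 to 1 in sst1.1+ins+, and by 4.46 and 4.67 to 1 in ins+. The 3 groups followed each other without overlap. Because the genes differ in length, the ratio has meaning between groups but not as a relative level. The mean log2 ratio (± SD) was 1.098 ± 0.27 over the 3 libraries of sst1.1+, 1.63 ± 0.38 over the 3 of sst1.1+ins+ and 2.19 ± 0.05 over the 2 of ins+. Between ins+ and sst1.1+ the difference was 1.09, with p = 0.1 in a two-sided exact permutation test. That is the smallest p that 3 against 2 or 3 against 3 libraries allow, and the adjusted p over the 9 tests of ratios was 0.257.

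The ratio of scg5 (the row with more reads) to pcsk2 was 1.93, 2.15 and 1.62 in sst1.1+ and 5.40 and 5.41 in ins+, a log2 difference of 1.52 (two-sided exact permutation p = 0.1, adjusted p = 0.257). In sst1.1+ins+ it was 1.47, 4.41 and 1.45. Replicate 2 lay near ins+ and the other 2 libraries lay below the sst1.1+ range. The ratio of pcsk1nl to pcsk1 was 3.86, 4.22 and 6.94 in sst1.1+, 2.36, 4.16 and 2.44 in sst1.1+ins+, and 4.99 and 4.66 in ins+. Its log2 mean differed by -0.0038 between ins+ and sst1.1+ (two-sided exact permutation p = 1). In sst1.1+ins+ it was lower than in sst1.1+ by a log2 difference of -0.75 (two-sided exact permutation p = 0.2, adjusted p = 0.257), and replicate 2 lay inside the sst1.1+ range.

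**Figure D3:**
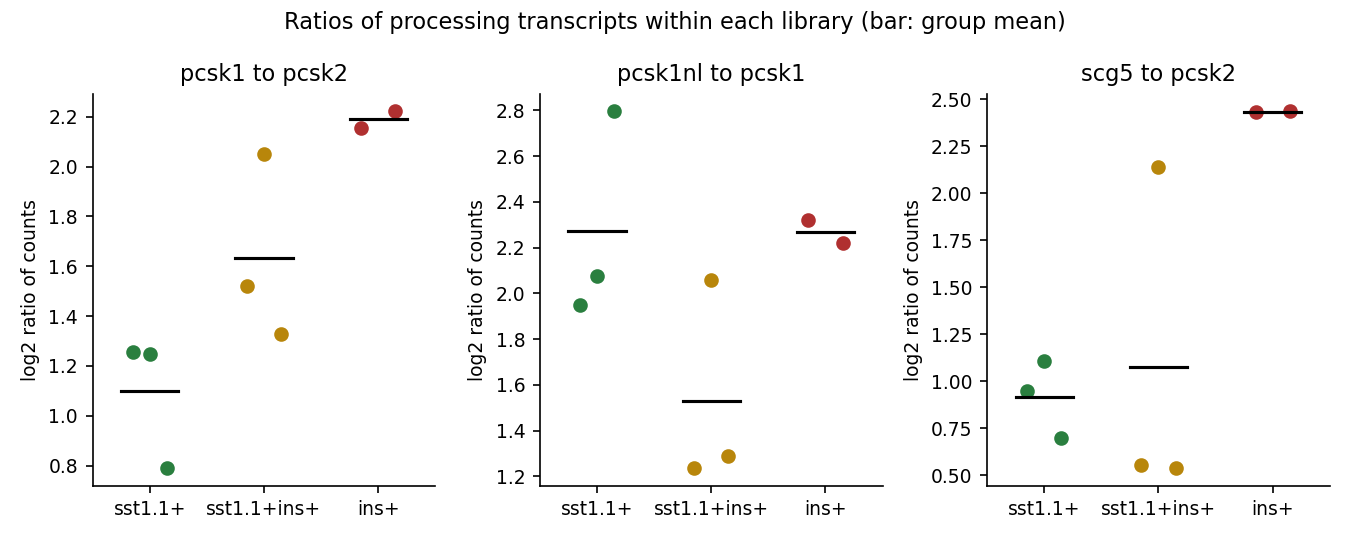
Log2 ratio of read counts within each library (vertical axes do not start at 0) for 3 pairs of processing genes, by sorted group. Points are libraries and bars are group means: the pcsk1 to pcsk2 ratio is 1.098 on average in sst1.1+ and 2.19 in ins+, and 1 sst1.1+ins+ library (replicate 2) stands apart from its group in all 3 panels.

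In 5 lists of the wider pathway edgeR called 0 genes higher in ins+ than in sst1.1+, where 1.61% of all genes tested were called higher and 2.42% lower and the median log2 fold change of all was -0.07. Of 13 tested genes for other convertases, carboxypeptidases and terminal modifiers, 0 were called in any comparison by edgeR, DESeq2 or limma-voom, and 0 had an unadjusted p under 0.05. Among them furina, a convertase of the Golgi, stood at 108, 139 and 155 CPM in sst1.1+, 106.1, 127 and 120 in sst1.1+ins+ and 152 and 144 in ins+. It was chosen for its known role after its values were seen. Of 17 tested granule maturation and zinc genes, 0 were higher in ins+ than in sst1.1+ and 1 was lower: VGF, a granule protein, at 22.3 ± 3.83 against 69.0 ± 16.8 CPM (3.10-fold, adjusted p = 0.00747, and 0.0636 without ins+ replicate 1). The list had a median log2 fold change of -0.16.

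Of the genes for the early steps in the ER, edgeR called pdia4, prdx4 and spcs3, each lower in ins+. Of 21 tested genes for disulfide formation and isomerases, 0 were higher in ins+ than in sst1.1+ and 2 were lower, and the median of the list was -0.35 on the log2 scale. The disulfide isomerase gene pdia4 stood at 31.3 ± 4.79 CPM in ins+ (SD, n = 2) and 99.1 ± 14.2 in sst1.1+ (n = 3), 3.17-fold lower (adjusted p = 0.00322). The peroxiredoxin gene prdx4 stood at 298 ± 2.42 and 627 ± 80.9 CPM, 2.11-fold lower (adjusted p = 0.00211). These 2 go against the direction of ero1lb, while some genes of the list that were not called had higher means in ins+ than in sst1.1+. Of 12 tested genes for the signal peptidase and the signal recognition particle 1 was lower, the signal peptidase subunit spcs3 (64.2 ± 1.33 against 188 ± 22.2 CPM, 2.93-fold, adjusted p = 0.00207), with a list median of -0.28. At unadjusted p under 0.05 there were 8, 4 and 3 genes in the disulfide, signal peptidase and granule lists. In the same lists DESeq2 called 5, 4 and 2 genes and limma-voom called 4, 2 and 1. The share of all genes at unadjusted p under 0.05 was not counted. The totals of the other tools over all genes are given further below.

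Other prohormone and granule protein genes were lower in ins+ in 8 of 20 cases and higher in 0, against 2.42% and 1.61% of all genes tested. The list median was -0.78, against -0.07 over all genes tested. The called genes were sst1.1, whose reporter defined the sort, gcga, gcgb, pyyb, nucb2b, chga, scg2a and scg2b. Some genes of the list that were not called, granule protein genes among them, had higher means in ins+ than in sst1.1+. Both gcga and gcgb are also among the alpha-cell markers, whose sums were not equal between groups. Like the other lists, this one was chosen with earlier results of these data known, so its counts are descriptions. Among the called genes the peptide YY gene pyyb had the largest fold, at 171 ± 26.2 CPM in ins+ and 1332 ± 59.7 in sst1.1+ (7.77-fold, adjusted p = 0.00036). Calls of gcga and gcgb were lost without ins+ replicate 2 (adjusted p = 0.0569 and 0.0713), and that of nucb2b (1.63-fold) failed in 5 of 17 alternatives, where adjusted p reached 0.141.

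In sst1.1+ins+ against ins+, 6 of these 20 were higher and 0 lower, against 0.755% and 0.164% of all genes tested. They were sst1.1, pyyb, nucb2b, chga, scg2a and scg2b. The chromogranin gene chga averaged 477 ± 34.2 CPM (SD) over the 3 sst1.1+ins+ libraries and 198 ± 29.9 over the 2 of ins+ (2.41-fold, adjusted p = 0.00388), and nucb2b at 732 ± 11.4 and 424 ± 23.6 CPM (1.73-fold, adjusted p = 0.0262). Without ins+ replicate 2 adjusted p was 0.0519 for pyyb, 0.0664 for chga and 0.0572 for scg2a. The calls of nucb2b and scg2b each failed in 6 of 17 alternatives, all of them with 1 library left out, where adjusted p reached 0.197 and 0.143. Of the disulfide genes 1 was higher, pdia4 (75.0 ± 17.2 against 31.3 ± 4.79 CPM, adjusted p = 0.0399), a call that failed in 9 of 17 alternatives, 6 of them with 1 library left out, where adjusted p reached 0.152.

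In sst1.1+ins+ against sst1.1+, edgeR called 0 genes of these 5 lists. At unadjusted p under 0.05 there were 0 convertase, 2 disulfide, 4 signal peptidase, 0 granule and 8 prohormone genes. In the same order DESeq2 called 0, 1, 1, 0 and 4, and limma-voom called 0, 0, 0, 0 and 3. The share of all genes at unadjusted p under 0.05 was not counted, so these numbers are descriptions of the lists.

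**Figure D4:**
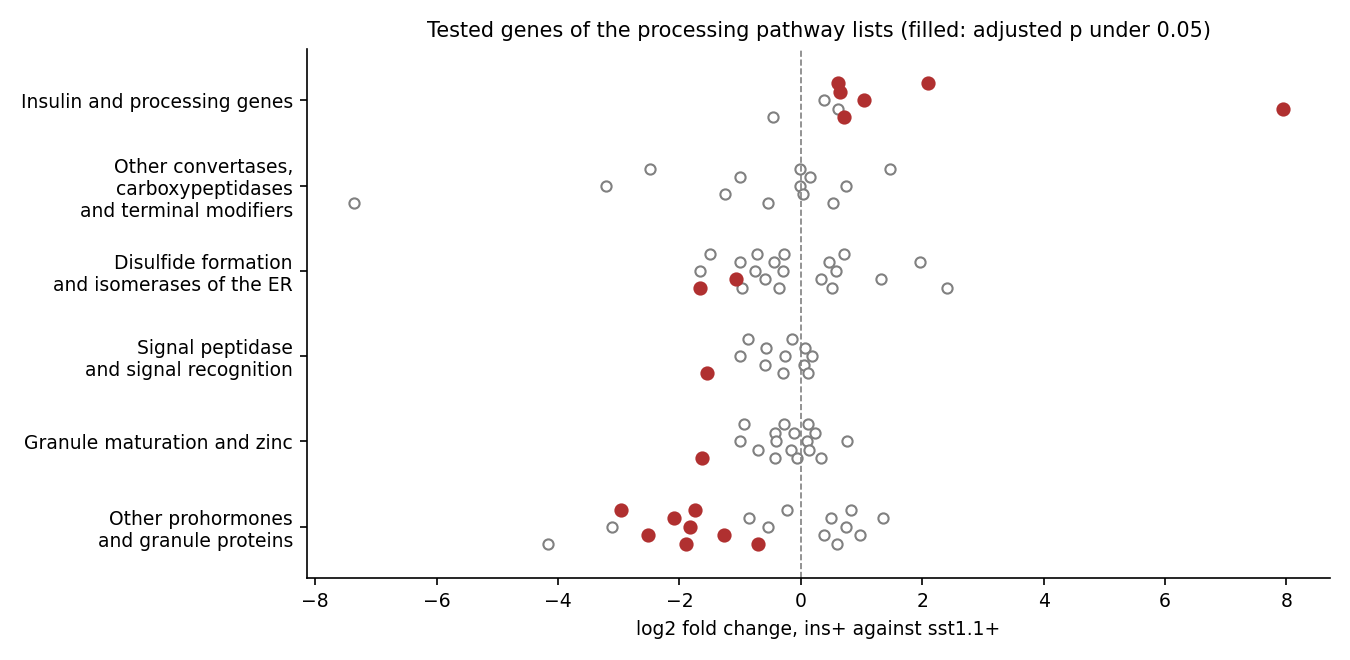
Log2 fold change for ins+ against sst1.1+ (horizontal axis) of each tested gene in 6 lists; filled points passed at adjusted p under 0.05. Filled points lie right of 0 for insulin and its processing genes and left of 0 for the other lists, where 8 of 20 other prohormone and granule protein genes passed. The point at -7.36 is cpxm1a, at 0 counts in both ins+ libraries, so that its fitted value is no bound on the change.

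For each called row, the 3 genes with the most similar profile over the 8 libraries were found among 3802 named genes with a mean of at least 20 CPM. Likeness was the root mean square distance between log2 CPM profiles, each centred on its mean. Closest to ins were gcgra (0.58), nkx6.2 (0.996) and cabp5a (1.26). The ins profile is that of the sort, so these genes describe the sort and support nothing further. They averaged 0.23, 0.89 and 1.07 CPM in sst1.1+, so low that the distances depend in part on the prior count. They reached a mean of 20 CPM through sst1.1+ins+ (27.6, 44.7 and 35.9 CPM) and ins+ (64.2, 104 and 32.1 CPM). Unlike ins, cabp5a had a higher mean in sst1.1+ins+ than in ins+. Closest to cpe were the potassium channel gene kcnma1a (0.09), the chromatin protein gene hmgb1a (0.09) and hsdl2 (0.09). For example, kcnma1a averaged 94.9 ± 4.78 CPM (SD) in the 3 sst1.1+ libraries, 112 ± 6.47 in the 3 of sst1.1+ins+ and 133 ± 8.54 in the 2 of ins+.

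Among those closest to pcsk1nl were the endocrine transcription factor gene pax6b (0.09) and rplp2l (0.10). The gene pax6b averaged 647 ± 92.4, 680 ± 85.6 and 987 ± 163 CPM in the same order of groups. Closest to the scg5 row with more reads were vamp1 (0.14), rprmb (0.15) and cst3 (0.15), and to that with fewer reads slc7a8b (0.39), lancl1 (0.41) and dpysl3 (0.42). Closest to ero1lb were ca7 (0.09), pabpc1b (0.09) and anp32e (0.10).

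**Figure D5:**
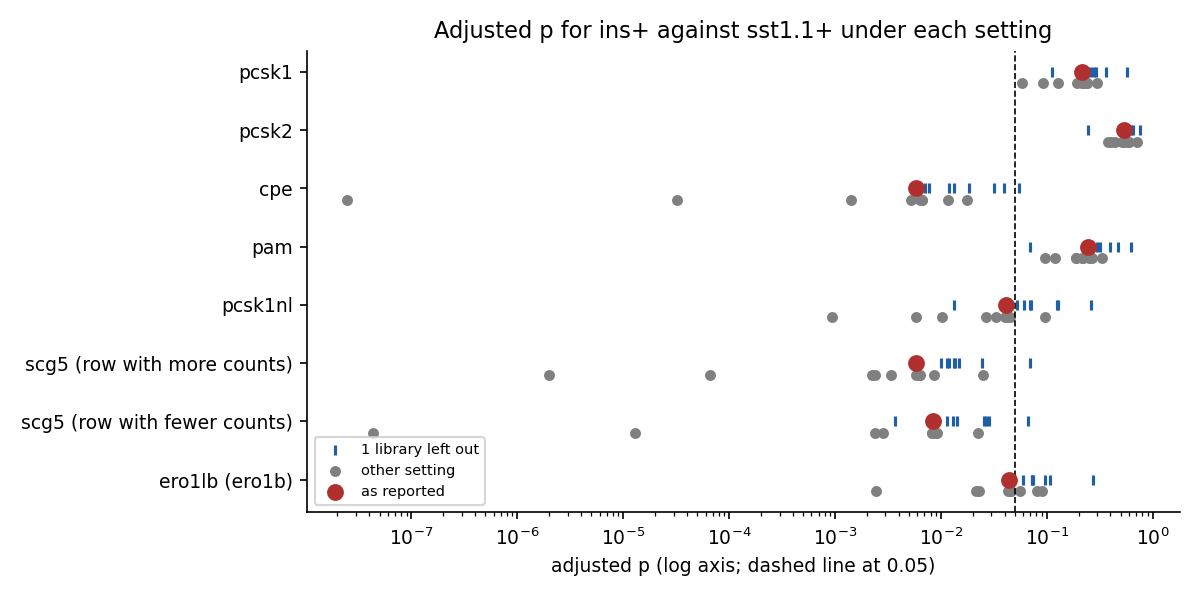
Adjusted p for ins+ against sst1.1+ (horizontal axis, logarithmic) of each processing gene as reported and under every alternative. The dashed line is 0.05: pcsk1, pcsk2 and pam stay to its right in every setting, pcsk1nl and ero1lb lie on both sides, and cpe and both scg5 rows cross it without ins+ replicate 2 (adjusted p = 0.0553, 0.0697 and 0.0670).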

How the data were processed

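The deposited values are unnormalized counts of reads per gene, made by the authors for 8 libraries. The submitters' processing notes name Trim Galore, HISAT2, featureCounts and the build GRCz11. How strand and multiply aligned reads were handled is not given in the sources used here, so overlapping genes and near-identical copies are uncertain. The 92 spike-in rows and 1 EGFP row stayed out of totals and tests.

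The test was run with edgeR 4.0.16 under R 4.3.3: default expression filter by group, TMM scaling, 1 mean per group over all 8 libraries, and the quasi-likelihood F-test with Benjamini-Hochberg adjustment over 16418 genes at 0.05. The SE is the log2 fold change over the square root of F, and 95% intervals use its t quantile. The test was also run on simulated counts with equal group means outside a set of changed genes. The large hormone differences of these libraries were not modelled there, and nothing here rests on that run. Log2 CPM used a prior count of 2, and ratios added 0.5 to both counts. Intervals cover the spread between libraries.

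Named were all member rows, list genes called in a comparison (at most 6 per list) and the 3 closest profiles of each called row (1 of them is not reported here), plus furina, insb and slc30a8 for their known roles. Where the 8 called prohormone genes exceeded 6 all were named. Members and lists were chosen with earlier results of these data known. Alternatives were RLE scaling, library totals, scaling without hormone and mitochondrial genes, DESeq2 1.42.0, limma-voom (limma 3.58.1) with quality weights, no filter, a filter of 10 CPM in 2 libraries, a replicate block, fits of the 2 groups compared and each library left out, with the tested genes kept. Where ins+ kept 1 library, its spread was taken to be that of the other groups. The sum of the scg5 rows was added after the data were seen, as was the other scg5 row in its ratio.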

Additional observations from a re-analysis of the deposited data

How the results depend on the processing

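Called genes numbered 662 for ins+ against sst1.1+ (265 higher, 397 lower; limma-voom gave 353 and 262), and 1677 with DESeq2, 1276 without a filter, 412 with the 2 groups alone and 330 to 757 with 1 library left out (436 without sst1.1+ replicate 1, 420 without its replicate 2, and 330 without ins+ replicate 2). For sst1.1+ins+ against sst1.1+ they numbered 34 (29 higher, 5 lower; limma-voom gave 40 and 59), and 270 with DESeq2, 99 with limma-voom, 229 without a filter, 79 at 10 CPM and 19 to 29 with 1 library left out (19 without sst1.1+ins+ replicate 3). For sst1.1+ins+ against ins+ they numbered 151 (124 higher, 27 lower; limma-voom gave 69 and 108), and 774 with DESeq2, 560 without a filter, 242 at 10 CPM and 61 to 194 with 1 library left out (68, 99, 78 and 61 without sst1.1+ins+ replicates 1, 2 and 3 and ins+ replicate 2). Of the 9 rows described, 6, 1 and 1 were called in these comparisons, with ins, whose reporter defined the groups, among them each time. With 1 library left out the counts were 1 to 5, 1 and 0 to 2. In the second comparison they were 3 with DESeq2, 2 with limma-voom and 2 without a filter. In the third they were 2 with RLE scaling, 0 with scaling without hormone and mitochondrial genes, 4 with DESeq2, 4 with limma-voom, 3 without a filter, 2 at 10 CPM and 2 with the 2 groups alone. The causes were not tested. With the replicate block 648, 44 and 181 genes and 5, 1 and 1 of the rows were called. Same-numbered libraries deviated from their group means with correlations of -0.0291 to 0.0125, against -0.0393 to 0.0402 for libraries with unlike numbers. These correlations run over all genes tested, and the ins+ libraries deviate from their mean as mirror images. They cannot tell whether libraries were paired, and the labels do not say. Sign changes were confined, among the log2 fold changes of the 9 rows, to sst1.1+ins+ against sst1.1+: pam (0.019 with library totals, 0.0093 with limma-voom, -0.12 to 0.13 with 1 library left out) and pcsk1nl (-0.058 to 0.15 with 1 left out). Of the ratios, pcsk1nl to pcsk1 in ins+ against sst1.1+ ran from -0.17 to 0.26 on the log2 scale with 1 library left out (above 0 without sst1.1+ replicate 3 and without ins+ replicate 2), and scg5 to pcsk2 in sst1.1+ins+ against sst1.1+ from -0.37 to 0.43 (-0.37 without sst1.1+ins+ replicate 2). Each row described held at least 373 reads in every library, and ins+ has 2 libraries.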

Other observations

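The genes insb and slc30a8 had few or 0 counts in the table. They are named for their known roles, after their values were seen. The row for insb, the other zebrafish insulin gene, held 0 counts in all 8 libraries. A count of 0 allows up to 3 counts, or 0.0988 to 0.177 CPM depending on the library, here with library totals not scaled by TMM. This limit covers counting error only. Of the 11 insulin-like family genes listed, 6 were tested and edgeR called 0 of them in any comparison, with 1, 0 and 1 at unadjusted p under 0.05 for ins+ against sst1.1+, sst1.1+ins+ against sst1.1+ and sst1.1+ins+ against ins+. DESeq2 called 0, 0 and 1, and limma-voom called 0 in each. The share of all genes at unadjusted p under 0.05 was not counted. The row for slc30a8, the gene of the zinc transporter that loads zinc into insulin granules in mammals, held 10 counts in all. These were 8, 1 and 1 in the sst1.1+ins+ libraries and 0 in the other 5, both ins+ libraries included.

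Among the other prohormone genes, gip, which encodes an incretin hormone in mammals, varied widely within groups and was singled out after its values were seen. It stood at 5939, 15087 and 4630 CPM in sst1.1+, at 5060, 11531 and 39.8 in sst1.1+ins+, and at 1932 and 44.2 in ins+. Sst1.1+ins+ replicate 3 and ins+ replicate 2 were thus low beside the other libraries of their groups. The log2 difference between ins+ and sst1.1+ of -3.11 ± 1.68 SE (95% interval -6.79 to 0.57) was not called (edgeR adjusted p = 0.367).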
